A study of Mus musculus with 2 samples.

Results

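The cells described here were mature lung dendritic cells with a high level of Epsti1, sorted as YFP+ cells from neonatal and adult zbtb46-cre x rosa26-yfp mice. They were selected on their own transcripts: a barcode of the deposited matrix entered with at least 500 detected genes, at least 1000 gene UMIs and at most 10% mitochondrial UMIs, at least 1 UMI of Ccr7 and 2 of Fscn1, and Epsti1 UMIs making up at least 0.2% of its gene UMIs. A UMI, or unique molecular identifier, stands for 1 captured transcript. This rule gave 711 cells of 14710 deposited barcodes (4.83%), or 5.48% of the 12968 that passed the quality filters, with 351 and 327 cells in the neonatal pools and 17 and 16 in the adult pools. The other 429 cells with the same Ccr7 and Fscn1 counts, 136 and 150 neonatal and 74 and 69 adult, held less Epsti1 and are called Epsti1-low. Each comparison below is between these groups within a pool, unless an age is named.

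Lungs came from mice 7 days or 8 weeks old, 2 pools per age and at least 5 mice per pool, in a strain where Zbtb46-driven Cre switches on YFP from the Rosa26 locus. Live CD45.2+ YFP+ cells were sorted, the pools of an age were marked with 2 hashtag antibodies and combined, and each age was loaded on its own 10x Genomics 3′ channel. No treatment was named, and both ages carried the same alleles. Zbtb46 is a transcription factor of conventional dendritic cells, but the Cre mark is permanent and also labels other cells that once expressed it, so the sort alone does not make every barcode a dendritic cell. Age and channel cannot be told apart, and neither can age and sex: Xist, expressed from the inactive X chromosome of females, read 856 and 783 CPM in the neonatal Epsti1-high sums and 0 in both adult sums, where Y-linked Ddx3y read 123 and 64.2. CPM are a gene's UMI counts per 1000000 gene UMIs of a sum, and a sum adds up all high or all low cells of 1 pool.

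Dendritic cells that take up antigen in the lung mature, turn on the chemokine receptor Ccr7 and travel through lymph vessels to the draining lymph node. There they present peptides to T cells on MHC molecules. Fscn1 encodes the actin-bundling protein fascin, which shapes the long dendrites of the mature state. Maturation follows inflammatory signals or runs without them, and the mature cell's cytokines, costimulatory ligands and chemokines steer T cells towards effector or tolerant fates. Epsti1, epithelial stromal interaction 1, is an interferon-induced gene, and Irf1 encodes a transcription factor induced by interferon gamma that drives MHC class I and Il12b transcription.

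The 4 pools held 2235 to 5074 barcodes and 8172362 to 20346024 gene UMIs. Neonatal Epsti1-high cells had median depths of 4176 and 4457 UMIs against 4320 and 4239 in the low cells, and adult high cells had 6565 and 8260 against 6252.5 and 6953. Predicted doublets made up 11 and 5 of the neonatal high cells and 11 and 7 of the low cells. The channels shared 14 barcode sequences, none of them between Epsti1-high cells. Of the 7 general dendritic cell markers listed, all were detected in the neonatal high sums. Together they read 7334 and 6275 CPM there, against 12413 and 12652 in the low sums. In the comparison below, 5 were called lower in the high cells (Cd74, Ciita, H2-Eb1, H2-Aa and Itgax) and 2 higher (Flt3 and Zbtb46). RNA of other cell types was uneven. The 10 neutrophil markers summed to 569 and 362 CPM in the neonatal high sums, 177 and 1745 in the low sums, and 73.9 and 2470.2 in the adult high sums. The second neonatal low sum and the second adult high sum therefore stood apart in neutrophil RNA. B cell, endothelial and epithelial lists each summed to at most 88.2 CPM in any of the 8 sums, and the NK and T list to 89.8 to 360. Monocyte and macrophage lists are given further below. At least 2 UMIs of genes that define other cell types, such as S100a8, Nkg7 or Cd79a, were found in 14.5 and 14.4% of neonatal high cells. The share was 15.4 and 12.7% of neonatal low, 17.6 and 37.5% of adult high and 10.8 and 15.9% of adult low cells.

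Epsti1 lies at chr14:77904239-78002657 (mm10, plus strand). It chose the cells, so its values are a description. The median Epsti1-high cell carried 20 Epsti1 UMIs (0.456% of its gene UMIs), against 2 (0.0519%) in the low cells, and 622 of the 711 high cells (87.5%) had 10 or more. Values ran without a gap across the threshold, as the plot of Epsti1 per mature cell shows. Just inside it lay cells with 9 of 4497, 8 of 3994 and 5 of 2474 UMIs, and just outside it cells with 16 of 8077, 10 of 5059 and 7 of 3553. Between 0.15 and 0.25% lay 145 of the 1140 mature cells (12.7%). Summed per pool, the Epsti1 level was 4975 and 5228 CPM in the neonatal high cells and 865 and 688 in the low cells, and 3696 and 3874 against 364 and 448 in the adult pools. Beyond the mature cells an Epsti1 share this high was rare: only 25 of 4031 and 28 of 4054 other filtered barcodes of the neonatal pools (0.620 and 0.691%) and 6 of 1960 and 4 of 1783 of the adult pools (0.306 and 0.224%) reached 0.2%. Epsti1 was still detected in these other barcodes, at 153 and 173 CPM in the neonatal and 176 and 188 in the adult pools.

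**Figure D1:**
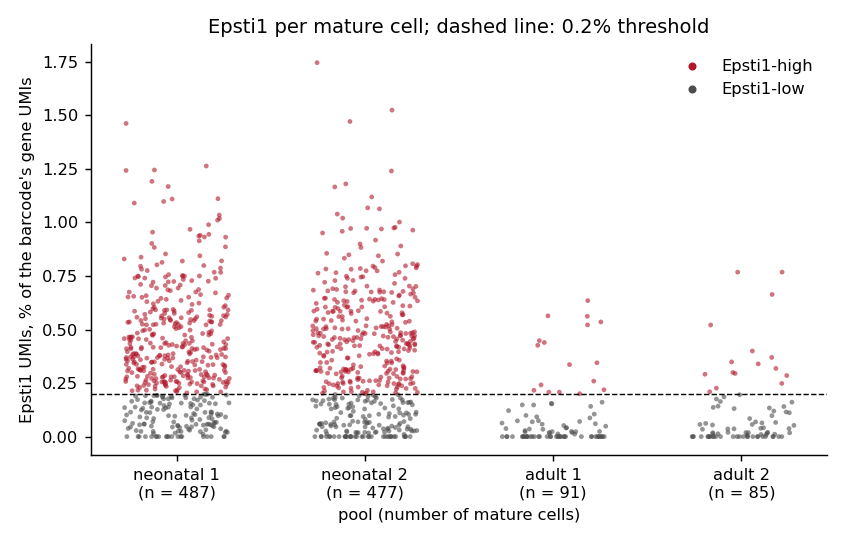
Epsti1 UMIs as a percentage of the gene UMIs of each mature cell (y axis) in the 4 pools (x axis), red for Epsti1-high and grey for Epsti1-low cells, with the 0.2% threshold dashed. Most neonatal cells lie above the line and most adult cells below it, and no gap separates the groups.

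Among mature cells, 351 of 487 (72.1%, exact 95% interval 67.9 to 76.0) and 327 of 477 (68.6%, 64.2 to 72.7) were Epsti1-high in the neonatal pools, against 17 of 91 (18.7%, 11.3 to 28.2) and 16 of 85 (18.8%, 11.2 to 28.8) in the adult pools. The intervals cover counting error only. The mean share was 70.3% ± 2.49 (SD, 2 pools) at 7 days and 18.8% ± 0.101 (SD, 2 pools) at 8 weeks, and the groups of pools did not overlap. An exact 2-sided permutation test over 2 pools against 2 cannot go below p = 0.3333, which is the value it gave. Mature cells as a whole were also more frequent in the neonatal pools, at 10.8 and 10.5% of filtered barcodes against 4.44 and 4.55%. Epsti1-high cells thus made up 7.77 and 7.22% of neonatal and 0.829 and 0.857% of adult filtered barcodes. With each cell thinned to 1000 UMIs before its Epsti1 share was taken, the shares of mature cells were 71.9, 71.5, 24.2 and 21.2%. A threshold of 0.4% lowered the difference between ages from 51.6 to 36.5 percentage points, with 41.3 and 45.3% of neonatal and 8.79 and 4.71% of adult mature cells above it.

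Besides Epsti1, the genes that mark these cells are Ccl5, Irf1 and Il12b, which were named with earlier results known and are given here without a test. Ccl5 (chr11:83525778-83530518, minus strand) encodes a chemokine that draws T cells, NK cells and monocytes. It reached 13349 and 14731 CPM in the neonatal high sums against 5744 and 6965 in the low sums, and 16017.5 and 20436 against 4872 and 4875 in the adult pools. All 4 high sums lay above all 4 low sums. Thinned to 1000 UMIs, 95.7 and 98.5% of neonatal high cells held a Ccl5 UMI (98.6 and 99.4% unthinned), against 82.4 and 75.3% of low cells. In 1500 barcodes rich in neutrophil transcripts, which should lack it, the share was 7.27% after the same thinning, from a median depth of 1669 UMIs. Within the neonatal high cells the level per cell still spread widely, from 29.0 to 271 Ccl5 UMIs per 10000 between the 10th and 90th percentiles in pool 1 and from 30.5 to 266 in pool 2.

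Irf1 (chr11:53770014-53778374, plus strand) stood at 787 and 853 CPM in the neonatal high sums and 389 and 349 in the low sums. In the adult pools it was 222 and 225 in the high and 152 and 107 in the low sums, so adult high cells read below neonatal low cells. Il12b (chr11:44400063-44414033, plus strand) encodes the p40 subunit shared by IL-12 and IL-23. Its level was 1107 and 859 in the neonatal high sums and 645 and 330.1 in the low sums. Adult values were 846 and 345 against 446 and 337, with no separation in the second adult pool. Il12b was found in a part of the cells only: 42.5 and 37.9% of neonatal high cells held a UMI after thinning to 1000 (63.5 and 62.7% unthinned), against 27.2 and 20% of low cells and 0.133% of the neutrophil-rich barcodes. Il12a, the partner subunit of IL-12, had 1 UMI in all 8 sums together, and Ifnb1 had none.

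**Figure D2:**
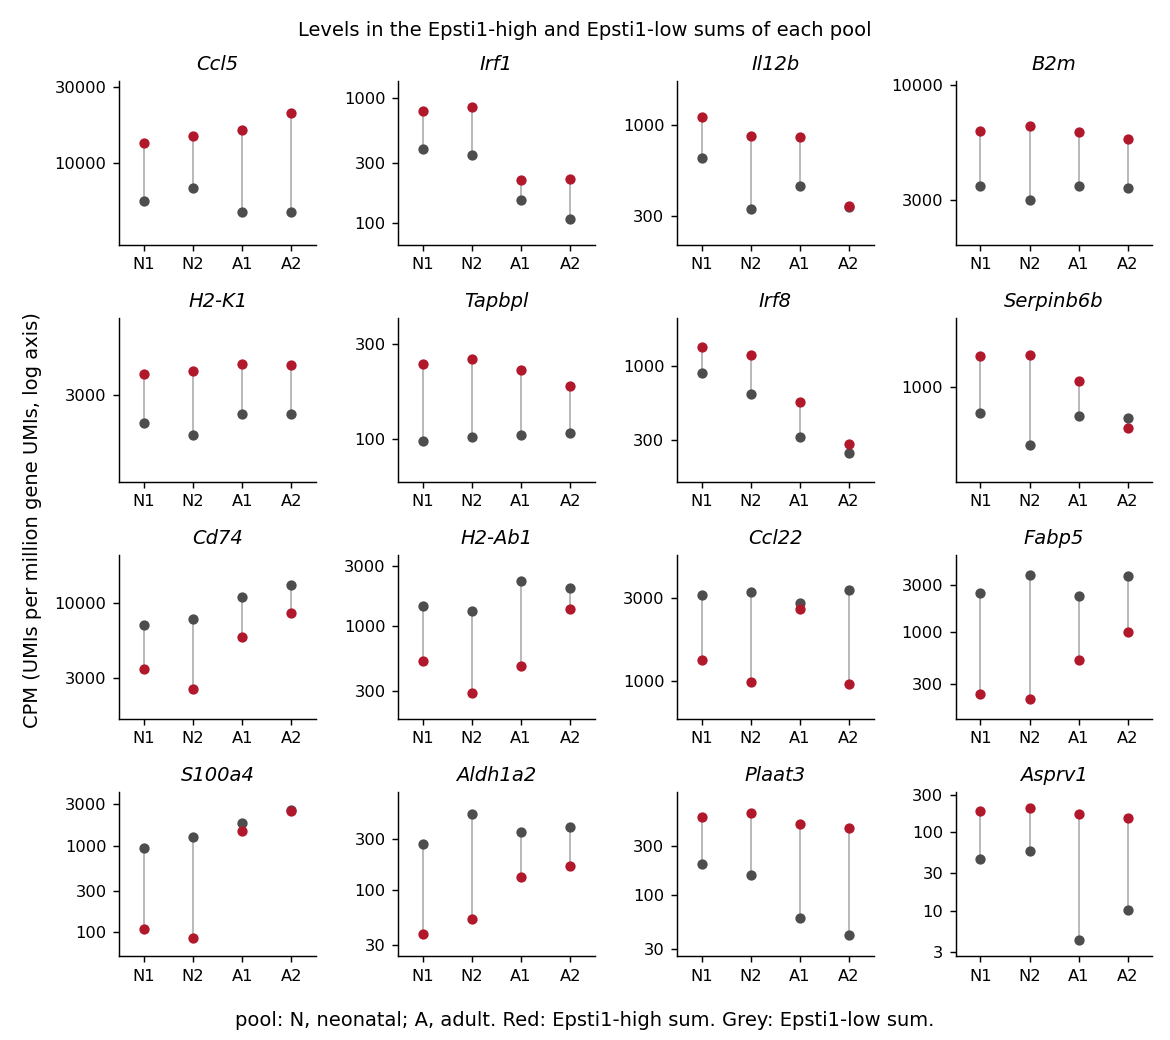
CPM (log axis) of 16 genes in the Epsti1-high (red) and Epsti1-low (grey) sums of each pool; 1 point is 1 pool, with no error bar. Ccl5, B2m, H2-K1, Tapbpl, Plaat3 and Asprv1 lie higher in the high sum of each pool, Cd74, H2-Ab1, Ccl22, Fabp5 and Aldh1a2 lie lower, and S100a4 lies lower in the high sums of the neonatal pools and close to the low sums in the adult pools.

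Levels of these and other genes were also taken by Epsti1 share in the neonatal pools. Irf1 climbed up to the 0.2 to 0.4% group and did not climb steadily beyond it: it stood at 31.2 and 93.6 CPM in mature cells with no Epsti1 UMI (20 and 34 cells), 453 and 427 in the other low cells, and 829.6 and 848, 675 and 847 and 856 and 863 in cells with 0.2 to 0.4%, 0.4 to 0.6% and 0.6% or more Epsti1. Ccl17, a CCR4 ligand of mature type 2 dendritic cells, ran the other way, from 3006 and 5834 through 1777 and 1953 to 246 and 63.3, 108 and 61.1 and 118 and 38.9. Fabp5 and S100a4 likewise dropped between the groups below and above 0.2%, whereas B2m was higher in each further group in both pools (2132 and 1568, 3749 and 3464, 5718 and 5775, 6341 and 6503 and 6827 and 7394). Ccr7, which the rule used, was highest at 0.2 to 0.4% (2909.8 and 2816) and lower at 0.4 to 0.6% (2505 and 2344) and above (2257 and 2169.6). Median depths of these groups were 4044 to 4874.5 UMIs per cell. These are descriptions of groups cut on Epsti1, with no test.

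**Figure D3:**
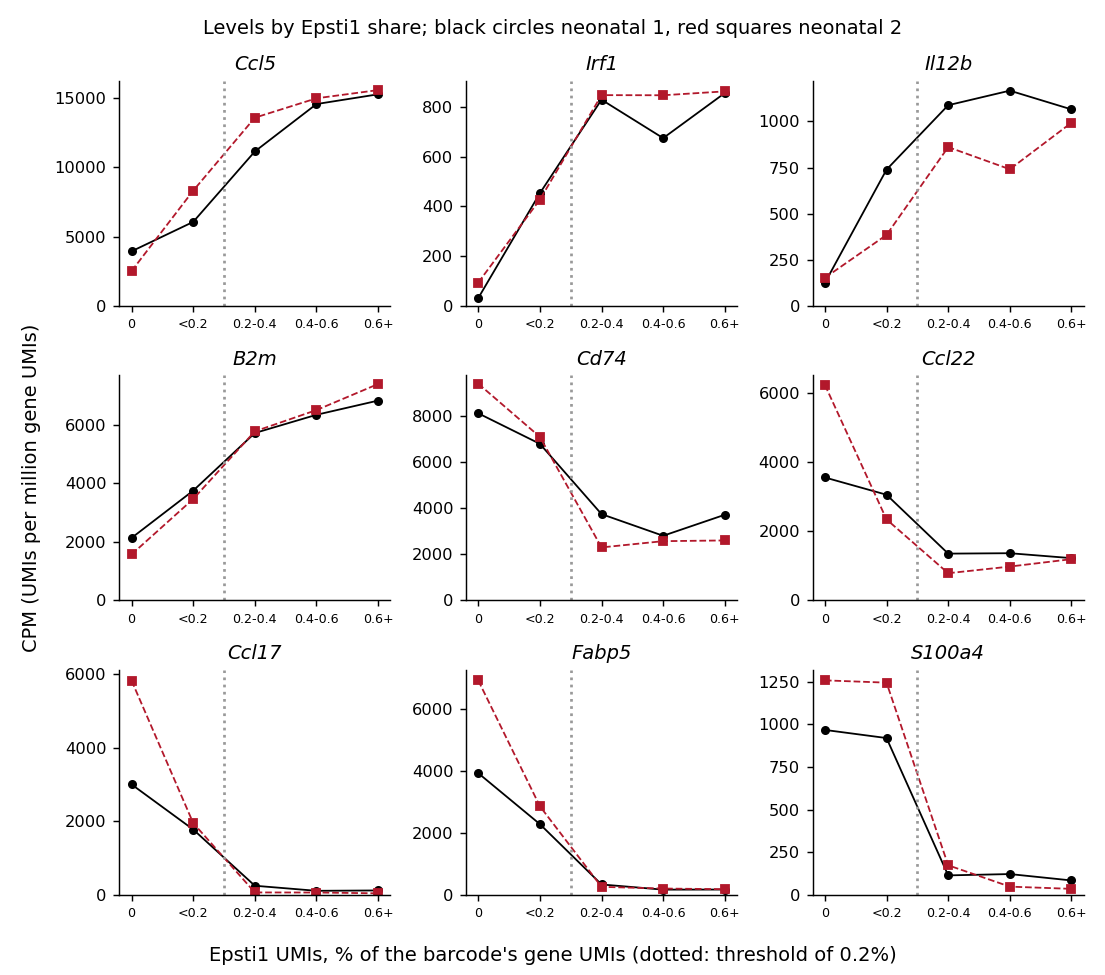
CPM (y axis) of 9 genes in neonatal mature cells grouped by Epsti1 share (x axis), with pool 1 in black circles and pool 2 in red squares and the 0.2% threshold dotted. Ccl5 and B2m climb across the groups, while Ccl17, Fabp5 and S100a4 drop between the groups below and above the threshold and stay low above it.

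Across the genome, the summed UMIs of high and low cells were compared in the neonatal pools with edgeR's quasi-likelihood test, with the pool as a block and Benjamini-Hochberg adjustment over all genes tested. Of 7189 genes, 1823 passed an adjusted p of 0.05 (25.4%), 851 higher (11.8%) and 972 lower (13.5%) in Epsti1-high cells, and the median log2 change over all genes was -0.01. Changes of 2-fold or more were 236 of the higher and 534 of the lower calls. The counts over all genes include the markers Epsti1, Ccr7, Fscn1, Il12b, Ccl5 and Irf1, although the first of these set the groups by rule. Epsti1 was chosen as the dividing gene with earlier results of these cells known, so these calls are no independent evidence that the groups are distinct, and with 2 pools p-values measure only the spread between those pools. The fit had 1 residual degree of freedom, so the p of a gene leans on the spread that edgeR pools across genes. In pool 1 alone, without the neonatal low sum rich in neutrophil RNA, all 113 named genes with a ratio of levels kept their direction. These genes were chosen from calls that used pool 1, so this was largely fixed beforehand. The part of neutrophil RNA in the calls was not tested. DESeq2 on the same sums called 202 higher and 191 lower, 392 of them also called by edgeR. It gave no adjusted p for 3206 of the 7189 genes, which count as not called by DESeq2 here and in the lists below. Leaving out barcodes with UMIs of another cell type's defining genes left 497 higher and 620 lower by edgeR. Each list count below is to be read against the shares over all genes tested, 11.8% higher and 13.5% lower. Genes named from here on are given as CPM in neonatal pools 1 and 2, high cells before low cells, with the log2 change, its SE and the adjusted p.

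**Figure D4:**
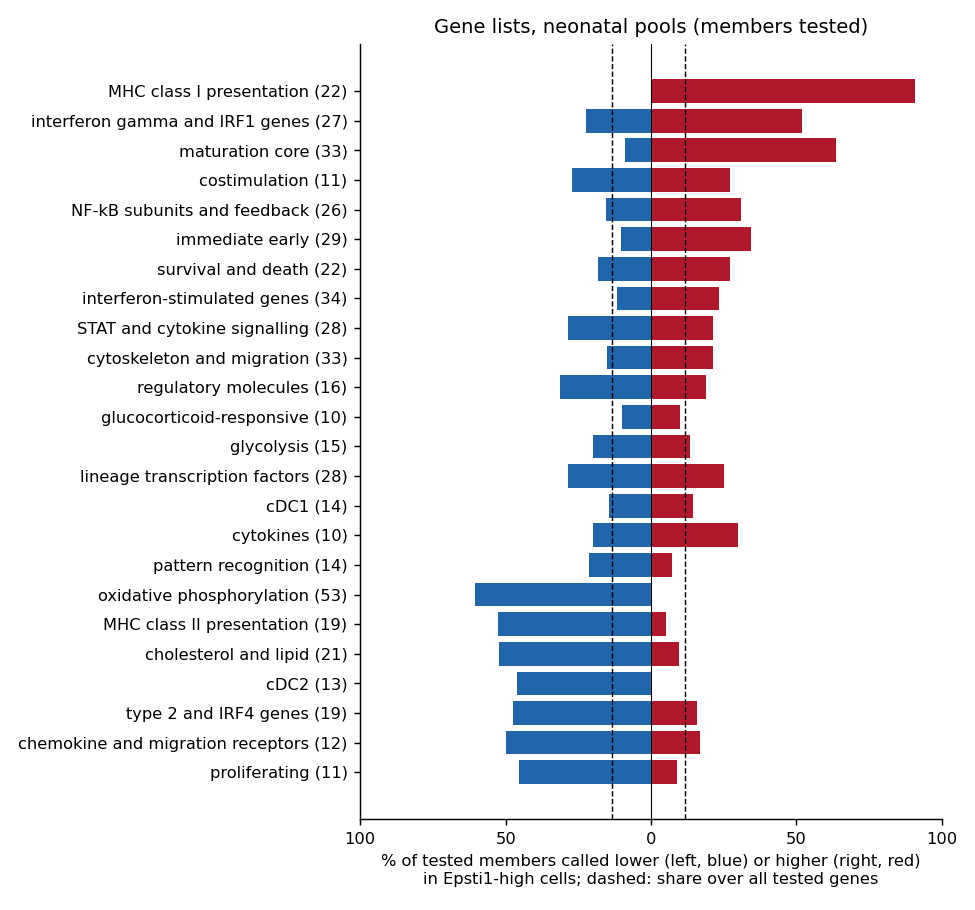
Percentage of tested members of each gene list with 10 or more members tested (rows, number tested in brackets) called lower (blue, left) or higher (red, right) in neonatal Epsti1-high cells, in order of the list's median log2 change. Dashed lines mark the shares over all genes tested, 13.5% lower and 11.8% higher; 20 of 22 MHC class I genes were called higher.

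MHC class I presentation was the list with the largest share called higher. Class I molecules show peptides from inside the cell to CD8 T cells. Of 22 genes tested, 20 rose, none fell, and the median log2 change was 0.81, against -0.01 over all genes. B2m (chr2:122147686-122153083, plus strand), the light chain of all class I molecules, read 6212 and 6549 in high and 3503 and 3020.2 in low cells (log2 change 1.00 ± 0.09, edgeR adjusted p = 1.5e-24). The heavy chain gene H2-K1 (chr17:33996017-34000347, minus strand) read 3694 and 3823 against 2255 and 1981 (log2 change 0.86 ± 0.10, edgeR adjusted p = 6.5e-17). H2-T23, which encodes the nonclassical molecule Qa-1, read 731 and 719.7 against 379.6 and 321 (log2 change 1.09 ± 0.12, edgeR adjusted p = 1.9e-16). In each case both high sums lay above both low sums, and DESeq2 also called the gene. Tap1, a subunit of the peptide transporter, rose by a log2 change of 0.89 and Tapbpl, a peptide editor, by 1.33. H2-Q4 rose by 1.11, but H2-Q genes are close copies of each other, so reads may be split between them. Nlrc5, the transactivator of class I genes, and the immunoproteasome subunits Psmb9 and Psmb10 were among the genes called. Psmb8 (1138 and 1113 against 1056 and 1056) and Calr (292 and 259.5 against 242 and 268) were not. DESeq2 called 12 of the 22 higher and none lower.

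The promoters of this list were searched for an interferon-stimulated response element, the site bound by IRF proteins, written GAAANNGAAA and read on both strands in the window from 250 bases before to 50 bases after the start. Of the 20 genes called higher, 17 matched a RefSeq promoter (GRCm38.p6), and 5 of those (29.4%) held the motif: B2m, H2-T23, H2-T22, Psme1 and Erap1. The share was 3.99% of the 27025 genes in the promoter table, 6.07% of the genes called higher and 4.99% of those called lower. The Epsti1 window held neither this motif nor the STAT site TTCNNNGAA, which 9.55% of all genes carry. The STAT site stood in 1 of the 17 class I genes (5.88%), against 7.70% of all genes called higher. In the list of interferon gamma and IRF1 genes it stood in 3 of 9 matched genes called higher and 1 of 5 called lower. For the interferon-stimulated list the counts were 1 of 5 and 1 of 2. The response element stood in 2 of 9 and 2 of 5 genes of the first list, the 2 lower ones being Gbp2 and Gbp3. In the second list it stood in 1 of 5 and 1 of 2. Windows of 2 class I genes whose site lies before the start in both RefSeq and GENCODE are shown as examples; GENCODE starts H2-T23 further upstream than RefSeq, so its site lies inside the gene there and is not shown. Capitals mark the motif or its reverse complement, and each run is on the gene's own strand, 5′ to 3′.
B2m, chr2:122147508-122147597 (plus strand): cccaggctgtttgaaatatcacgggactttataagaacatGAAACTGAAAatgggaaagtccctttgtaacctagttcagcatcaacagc
H2-T22, chr17:36042884-36042973 (minus strand): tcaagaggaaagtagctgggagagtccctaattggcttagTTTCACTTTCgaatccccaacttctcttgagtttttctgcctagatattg
The site begins 139 bases before the RefSeq start in B2m and 191 in H2-T22. A match describes the letters of the window and does not show that a factor binds there.

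MHC class II genes, which present peptides taken up from outside to CD4 T cells, mostly ran the other way. Of 19 tested, 10 fell, 1 rose and 8 did not pass, with a median log2 change of -0.54. Cd74, the invariant chain, read 3436 and 2491 in high and 6998 and 7639 in low cells (log2 change -1.29 ± 0.09, edgeR adjusted p = 1.6e-37). H2-Ab1, a class II beta chain, read 518 and 286 against 1422 and 1298 (log2 change -1.78 ± 0.11, edgeR adjusted p = 9.9e-47). Its partner H2-Aa changed less, from 2738 and 2548 in low to 2011 and 2050.3 in high cells (log2 change -0.35, edgeR adjusted p = 0.00306). Ciita, the master regulator of class II genes, stood at 13.4 and 2.05 against 64.8 and 37.0 (log2 change -2.73 ± 0.37, edgeR adjusted p = 9.5e-12). H2-DMa, part of the peptide exchange factor, fell by 1.76 on the log2 scale. Lgmn, an endosomal protease, was the exception at 215 and 229 against 122 and 83.6 (log2 change 1.16 ± 0.17, edgeR adjusted p = 1.2e-10). The high sums lay below the low sums for all 5 of the first named genes in both neonatal pools. DESeq2 called 6 of the list lower and 1 higher.

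Interferon-related genes split. In the list of interferon gamma and IRF1 genes, which shares 8 members with the class I list, 14 of 27 rose and 6 fell, with Irf1 left out (median log2 change 0.49). Tap1, Tap2, Psmb9, Psmb10, Psme1, Psme2 and Nlrc5 are among the 14 and were already counted under class I. None of the 6 that fell is in the class I list. Irf8, a transcription factor of type 1 dendritic cells that interferon gamma also induces, read 1353 and 1199.8 against 892 and 636 (log2 change 0.79 ± 0.11, edgeR adjusted p = 3.0e-11). Gbp4, a guanylate-binding GTPase, read 209.5 and 192 against 101 and 75.3 (log2 change 1.23 ± 0.17, edgeR adjusted p = 3.3e-11), and Il18bp, a soluble inhibitor of IL-18, 31.2 and 35.6 against 9.49 and 6.85 (log2 change 2.07 ± 0.43, edgeR adjusted p = 1.9e-05). Gbp2 and Gbp3 were lower, Gbp2 at 108 and 84.9 against 112 and 155 with DESeq2 giving an adjusted p of 0.647, and so was the interferon gamma receptor chain Ifngr1 (49.0 and 45.2 against 80.7 and 80.8). Gbp genes are close relatives whose reads may be shared.

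The list of general interferon-stimulated genes moved less: 8 of 34 rose (23.5%, against 11.8% of all genes), 4 fell (11.8%, against 13.5%), and the median log2 change was 0.10. Ifi209 rose (197 and 177 against 87.0 and 65.7, log2 change 1.33 ± 0.18, edgeR adjusted p = 2.5e-12), and so did Oasl1, Ifi204 and Ifi211. Slfn2 fell (61.8 and 54.1 against 176 and 203, log2 change -1.67 ± 0.17, edgeR adjusted p = 4.3e-20), as did Ifi27l2a, Ifitm3 and Ly6e. DESeq2 called 1 of this list higher and 3 lower. The other 22 tested genes of the list did not pass, Isg15, Stat2 and Irf9 among them. Cxcl9 and Cxcl10, chemokine genes of interferon responses, read at most 8.57 CPM in any sum.

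The core maturation programme was higher in the neonatal Epsti1-high cells, although both groups were picked on Ccr7 and Fscn1. Of 33 other maturation genes 21 rose, 3 fell and 9 did not pass (median log2 change 0.44). Serpinb6b, a serine protease inhibitor, read 1478 and 1494 against 716 and 481 (log2 change 1.37 ± 0.11, edgeR adjusted p = 1.9e-31). Zmynd15 read 1155 and 1183 against 705 and 618 and Synpo2, which encodes an actin-binding protein, 325 and 314 against 157 and 119 (log2 changes 0.86 and 1.26). Il15ra, the chain that presents IL-15 to other cells, rose by 0.79, and Tmem123 by 0.59. Those that fell were Ccl22, Apol7c and Nr4a3, an orphan nuclear receptor (72.0 and 69.2 against 362 and 285, log2 change -2.16 ± 0.16, edgeR adjusted p = 2.0e-38). Ccr7 and Fscn1, which the rule used, read 2607 and 2442 and 3453 and 3331 in high and 2092 and 1522 and 2168 and 1876 in low cells. These levels are a description only. Adult Ccr7 read 1906 and 1436 in high against 1766 and 1544 in low cells. Of the 33 other genes, 17 were higher and 11 lower in both adult pools.

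Of 11 costimulatory ligands 3 rose and 3 fell (27.3% each, against 11.8 and 13.5% of all genes). Cd80 and Cd86, the CD28 ligands, were lower, at 113 and 83.5 against 202 and 111 (edgeR adjusted p = 0.00198, DESeq2 adjusted p = 0.357) and 119.7 and 93.8 against 180.3 and 149 (edgeR adjusted p = 0.00214, DESeq2 adjusted p = 0.319). Cd48, a ligand of CD244, fell by 1.13 on the log2 scale. Cd70, which engages CD27, and Icosl, which engages ICOS, rose by 0.75 and 0.52, also without a DESeq2 call. Cd40 (209.5 and 229 against 191 and 184) did not pass. Among 16 regulatory molecules 3 rose and 5 fell. Tnfrsf4, the OX40 receptor, rose to 575 and 616 from 259 and 205 (log2 change 1.40 ± 0.13, edgeR adjusted p = 7.8e-23, DESeq2 adjusted p = 1.3e-08). Aldh1a2, an enzyme that makes retinoic acid, fell to 38.2 and 53.4 from 272 and 519 (log2 change -3.04 ± 0.17, edgeR adjusted p = 1.1e-68, DESeq2 adjusted p = 3.9e-23). Cd274, which encodes PD-L1, read 244 and 192 against 221 and 171 and did not pass.

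Of the cytokine genes other than Il12b, 3 of 10 rose and 2 fell. Il15, which sustains CD8 T and NK cells, read 138 and 123 against 55.4 and 90.4 (log2 change 0.86 ± 0.18, edgeR adjusted p = 3.9e-05, DESeq2 adjusted p = 0.142), and Csf1, the macrophage growth factor, and Ebi3, a subunit of IL-27, rose with log2 changes of 1.24 and 0.63 by edgeR alone (DESeq2 adjusted p = 0.284 and 0.487), and both lost the call at an Epsti1 threshold of 0.4% and without barcodes holding other types' defining genes. Il18 was scarce in both groups and lower in the high cells (4.46 and 0.685 against 9.49 and 17.8). Chemokines other than Ccl5 fell in 5 of 9 tested genes and rose in none. Ccl22, a CCR4 ligand that attracts regulatory and type 2 helper T cells, read 1321 and 983 against 3133 and 3254 (log2 change -1.45 ± 0.10, edgeR adjusted p = 3.9e-43, DESeq2 adjusted p = 2.4e-18). The inflammatory chemokines Ccl4 (1.91 and 2.05 against 125 and 27.4, log2 change -5.12 ± 0.45, edgeR adjusted p = 7.6e-28) and Ccl3 (8.92 and 6.85 against 20.6 and 64.4) fell as well, and so did Ccl9 and Ccl6. Ccl17 read 168 and 54.8 against 1964 and 2861, and edgeR did not call it (log2 change -4.46, adjusted p = 0.327) whereas DESeq2 did (adjusted p = 4.7e-05). After thinning, 4.27 and 3.98% of neonatal high cells and 29.4 and 30.7% of low cells held a Ccl17 UMI, with 1.53% in neutrophil-rich barcodes.

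Receptors for migration signals fell in 6 of 12 tested genes and rose in 2, S1pr1 and Ptger4. Gpr183, the receptor for oxysterols that positions dendritic cells, read 15.3 and 8.22 against 47.4 and 72.6 (log2 change -2.30 ± 0.33, edgeR adjusted p = 6.9e-11), and Itgal, the alpha chain of the integrin LFA-1, 22.3 and 20.5 against 71.2 and 60.3 (log2 change -1.58 ± 0.27, edgeR adjusted p = 2.3e-07). In the cytoskeleton list 7 of 33 genes rose (21.2%) and 5 fell (15.2%, close to the 13.5% of all genes). Actn1 and Dock10, an actin cross-linker and a guanine nucleotide exchange factor, rose to 501 and 539.6 from 313 and 292 and to 619 and 636 from 443 and 366 (log2 changes 0.82 and 0.67). Rac2, a small GTPase of blood cells, and Anxa2, a membrane-binding annexin, fell to 30.6 and 28.1 from 114 and 138 and to 298 and 301 from 547 and 712 (log2 changes -2.06 and -1.03).

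Genes of type 2 responses and of IRF4, a factor of type 2 dendritic cells, were more often lower, in 9 of 19 tested, with 3 higher (median log2 change -0.89). Fabp5, a fatty acid carrier, read 235 and 212 against 2527 and 3804 (log2 change -3.76 ± 0.12, edgeR adjusted p = 1.6e-152, DESeq2 adjusted p = 6.5e-22). Its relative Fabp4 had 3 UMIs in all neonatal high cells against 143 in the low cells, a level 106-fold lower (exact 95% counting interval 35.6 to 520.2). Cish, a feedback inhibitor of STAT5 signalling, read 8.28 and 4.11 against 45.9 and 60.3 (log2 change -3.03 ± 0.38, edgeR adjusted p = 5.7e-14), and Irf4 itself 21.7 and 21.9 against 50.6 and 32.9 (edgeR adjusted p = 0.0237, DESeq2 adjusted p = 0.54). Jag1, a Notch ligand, went the other way (159.9 and 142 against 91.7 and 31.5, log2 change 1.38 ± 0.19, edgeR adjusted p = 2.2e-11), with Il4ra and Stat6. In the cholesterol and lipid list 11 of 21 fell and 2 rose. The sterol synthesis genes Cyp51, Fdps, Msmo1, Hmgcs1 and Mvd were among those that fell, while Abcg1, a cholesterol exporter (238 and 242 against 103 and 129, log2 change 1.08 ± 0.16, edgeR adjusted p = 7.9e-10), rose.

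Markers that separate the lineages of conventional dendritic cells were compared next; mature cells are known to lose many of them. The 20 type 1 markers summed to 1979.6 and 1721 CPM in the neonatal high cells and 1626 and 1181 in the low cells. Irf8 alone (1353 and 1199.8 against 892 and 636) differed by more than the whole sum in both pools. Of 14 tested genes 2 were higher (Irf8 and Cadm1) and 2 lower (Cd36 and Wdfy4). These shares, 14.3% each, were close to the 11.8 and 13.5% of all genes. The log2 change was above 0 for 5 of them and below 0 for 9, with a median of -0.28. Clec9a and Xcr1, the defining type 1 receptors, read 22.9 and 29.4 and 10.8 and 6.16 in high and 25.3 and 4.11 and 20.6 and 10.96 in low cells and did not pass. The 20 type 2 markers summed to 1497 and 1379 against 3726 and 5058, much of it Ccl17, with 6 of 13 lower and none higher. Sirpa, an inhibitory receptor of type 2 cells, read 31.8 and 33.6 against 87.0 and 121 (log2 change -1.62 ± 0.22, edgeR adjusted p = 3.5e-12), and the transcription factor Zeb2 47.8 and 55.5 against 152 and 181 (log2 change -1.65 ± 0.18, edgeR adjusted p = 7.2e-18). Of 28 lineage transcription factors 7 rose and 8 fell. Id2 rose (2039 and 2017 against 1357 and 1242, log2 change 0.68 ± 0.10, edgeR adjusted p = 1.5e-09), as did the receptor gene Flt3 (223 and 233 against 139 and 121) and Zbtb46 (112 and 101 against 77.5 and 57.5), and Cebpb fell (56.7 and 65.1 against 217 and 171, log2 change -1.63 ± 0.17, edgeR adjusted p = 1.6e-19).

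Transcripts of classical monocytes and macrophages were lower in the neonatal Epsti1-high sums. Classical monocyte markers summed to 289 and 344 against 879 and 975 CPM, mostly Lyz2, which encodes lysozyme (248 and 320.5 against 814 and 878, log2 change -1.55 ± 0.12, edgeR adjusted p = 1.2e-33). Macrophage markers summed to 75.8 and 80.1 against 161 and 479, with C1qa, C1qc and Chil3 at 0 in both high sums. All 3 tested members of each list fell. Nonclassical monocyte markers summed to 397 and 432 against 512 and 434, with 3 of 7 tested genes lower and none higher. In the adult pools the classical list summed to 49.3 and 176 against 169 and 39.2. The nonclassical list summed there to 378 and 810 against 405 and 549, and the macrophage list to 57.5 and 120 against 62.2 and 72.3. Each of these sums was higher in the high cells of the second adult pool. Without barcodes that held defining genes of other types, Lyz2 (log2 change -1.14, edgeR adjusted p = 0.621) and Apoe, a macrophage gene (log2 change -0.57, edgeR adjusted p = 0.208), kept their direction and lost their calls. Cycling genes were lower in 5 of 11 tested and higher in 1. Top2a read 7.64 and 11.6 against 26.9 and 50.7 and Stmn1 15.3 and 8.22 against 41.1 and 83.6. Both changed sign at an Epsti1 threshold of 0.1% without being called there. Mki67, among the 5, was lower in pool 2 only (31.8 and 20.5 against 26.9 and 82.2). The whole list summed to 2553 and 2563 CPM against 2266 and 2872, so the neonatal pools differed in direction. In the adult pools it summed to 2973.5 and 3850 against 2092 and 2267. There 2 of 4 tested members were called higher and none lower. The part of these other transcripts in the gene differences above was not tested.

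All 53 tested genes of oxidative phosphorylation had a log2 change below 0, and 32 of them were called lower (60.4%, against 13.5% of all genes), with a median of -0.48. Uqcr10, of complex III, read 74.5 and 78.8 against 141 and 164 and Ndufb10, of complex I, 86.0 and 85.6 against 168 and 158 (log2 changes -0.96 and -0.89). DESeq2 called 1 of the 53. The adult pools did not share this direction: 23 genes were higher and 11 lower in both adult pools. Over 51 tested there the median log2 change was 0.19, with 1 called higher and none lower. The median mitochondrial share per cell was 2.20 and 2.14% of UMIs in high and 2.80 and 3.35% in low cells. Of 15 glycolysis genes 2 rose (13.3%, close to the 11.8% of all genes) and 3 fell (20%, against 13.5%), with Ldha and Eno1 among the 3. Pfkfb3, which makes the activator of phosphofructokinase, rose to 603 and 599 from 313 and 311 (log2 change 0.98 ± 0.13, edgeR adjusted p = 1.8e-12).

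Signalling lists held changes of both signs. Of 26 NF-kB subunits and targets 8 rose (30.8%, against 11.8% of all genes) and 4 fell (15.4%, close to 13.5%). Traf1 (1579 and 1544 against 1186 and 1079, log2 change 0.50) and the inhibitor Nfkbib (278 and 291 against 193 and 141, log2 change 0.81) were higher, and the anti-apoptotic pair Bcl2a1d and Bcl2a1b, near-identical copies whose reads may be shared, were lower (log2 changes -0.75 and -0.56). The death inducers Bcl2l11 and Fas rose (log2 changes 1.13 and 0.73), neither of them called by DESeq2. In the STAT list 6 of 28 rose, including Il21r and Pim1, and 8 fell, including Socs3 and Cish. Among 29 immediate early and heat-shock genes 10 rose and 3 fell. Hsp90aa1, a chaperone, read 904 and 932 against 414 and 455 (log2 change 1.11 ± 0.12, edgeR adjusted p = 8.9e-19, DESeq2 adjusted p = 2.1e-08), and Hspa1a, which has a near-identical copy, and Dnajb1 rose by 1.40 and 1.21. In the pattern recognition list 1 of 14 rose (7.14%) and 3 fell (21.4%), and in the glucocorticoid list 1 of 10 rose and 1 fell (10% each, against 11.8 and 13.5% of all genes).

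Ranked by log2 change, and with a floor of 20 CPM in both high sums, the 15 largest increases were led by Elobl, which had 73 UMIs in the neonatal high cells and 3 in the low cells, a 10.9-fold higher level (exact 95% counting interval 3.60 to 54.3). Plaat3, a phospholipase and acyltransferase, was the most abundant of them at 566 and 619.7 against 201 and 156 (log2 change 1.77 ± 0.14, edgeR adjusted p = 9.6e-34, DESeq2 adjusted p = 1.3e-12). Asprv1, an aspartic protease, read 187 and 203 against 45.9 and 57.5 (log2 change 1.94 ± 0.19, edgeR adjusted p = 2.1e-22, DESeq2 adjusted p = 2.2e-06). Slc8b1, a mitochondrial sodium-calcium exchanger, read 163 and 108 against 42.7 and 45.2, Ttc39a 164 and 168 against 71.2 and 37.0, and Pdgfa, a growth factor for mesenchymal cells, 86.0 and 78.8 against 36.4 and 17.8 (log2 changes 1.62, 1.68 and 1.66). The others were Il18bp, B3gnt5, Ptpn21, Ppt2, Smagp, Wdr90, Gal3st2, Afap1 and Arhgap8, with log2 changes of 1.598 to 2.07.

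The 15 largest decreases went further on the log2 scale than the increases. S100a4, a calcium-binding protein of motile cells, read 108 and 84.2 against 927 and 1248 (log2 change -3.45 ± 0.14, edgeR adjusted p = 7.3e-122, DESeq2 adjusted p = 2.3e-16). AA467197, also known as Nmes1, read 18.5 and 20.5 against 248 and 225 (log2 change -3.56 ± 0.20, edgeR adjusted p = 2.4e-67). Il2ra, the alpha chain of the IL-2 receptor, read 6.37 and 10.96 against 71.2 and 83.6 (log2 change -3.12 ± 0.32, edgeR adjusted p = 8.5e-20), Wfdc17 8.28 and 7.53 against 69.6 and 80.8, and Klrd1, which encodes CD94, 3.82 and 1.37 against 20.6 and 28.8 (log2 changes -3.19 and -3.15). Il18r1, the IL-18 receptor, had 2 UMIs in the high cells and 33 in the low cells, a 36.7-fold lower level (exact 95% counting interval 9.39 to 316). Upb1 had 3 and 54 (40.04-fold lower, 12.99 to 200.2). Blnk, Stxbp6, Lpl and Sulf2 completed the group with Fabp4, Fabp5, Ccl4 and Aldh1a2. Of the 115 genes chosen for naming by the rule, all of them called by edgeR, DESeq2 called 75 and gave no adjusted p for 19.

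The adult pools, which the neonatal fit did not use, held 33 Epsti1-high cells. The same contrast there, added after the neonatal results were seen, called 138 genes higher (4.04%) and 115 lower (3.37%) of 3415 tested (7.41% in all). Of the neonatal calls with at least 10 adult UMIs, 349 of 788 higher genes (44.3%) were higher in both adult pools and 148 (18.8%) lower in both, whereas over all tested genes 22.7% were higher in both and 36.7% lower in both. For genes called lower in the neonatal pools, 482 of 867 (55.6%) were lower in both adult pools and 113 (13.03%) higher in both. Class I genes held their direction at both ages: 20 of 22 were higher in both adult pools, and the adult fit called 13 higher and none lower. B2m read 6136 and 5726 in adult high against 3487 and 3407 in adult low cells (log2 change 0.85, edgeR adjusted p = 0.00116). Plaat3 (493 and 449 against 60.0 and 41.3, log2 change 3.29, edgeR adjusted p = 1.4e-24) and Asprv1 (172 and 152 against 4.29 and 10.3, log2 change 4.46, edgeR adjusted p = 4.3e-15) were further apart there than in the neonatal pools. Fabp5 was lower too (517 and 1019 against 2325 and 3766), and Ciita had no UMI in the adult high cells against 54 in the low cells, at least 4.66-fold lower when 3 UMIs over the group are taken as the floor. Cd80 and Cd86 read 41.1 and 8.02 and 98.6 and 24.1 in adult high against 195 and 114 and 283 and 304 in low cells. Among 85 of the named genes tested in adult pools, 35 were called in the same direction, none in the opposite one, and 14 had the opposite sign without a call. The second adult high sum, which stood apart in neutrophil RNA, was not decisive for the direction of B2m, Plaat3, Asprv1 or Fabp5, which was the same in the first adult pool; its part in the other adult values was not tested.

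**Figure D5:**
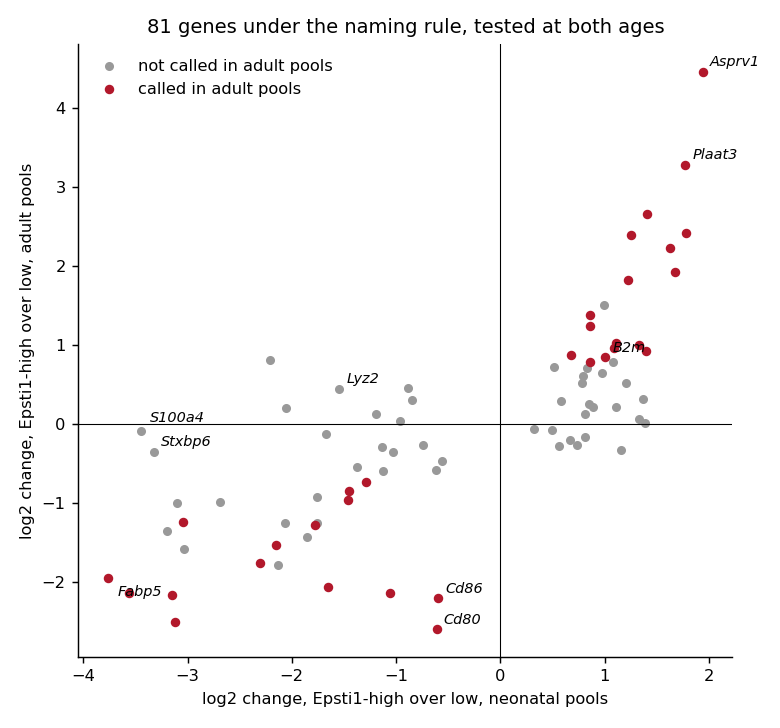
Log2 change between Epsti1-high and Epsti1-low cells in the neonatal pools (x axis) and the adult pools (y axis) for genes under the naming rule that were tested at both ages, had more than 3 UMIs in the neonatal and adult high sums and in the adult low sums, and are not markers; red points were called in the adult pools. Most points lie in the lower left and upper right, and S100a4 lies near 0 in the adult pools.

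The difference between high and low cells itself differed by age, by an interaction term over all 8 sums, for 177 of 5089 genes (3.48%). This count rested on both neonatal pools, as it was 6 without the first and 1 without the second. S100a4 had the smallest adjusted p (edgeR, 1.7e-23): it read 1479 and 2542 in adult high and 1813 and 2591 in adult low cells, so its levels lay close together there. The interaction was also called for Fabp5 (edgeR adjusted p = 7.1e-09), Aldh1a2 (1.7e-04), Cd80 (0.0193) and Serpinb6b (0.00455), with the neonatal gap larger for Fabp5, Aldh1a2 and Serpinb6b and the adult gap larger for Cd80. Among 22 class I genes 1 was called, Psmb10, and among 53 oxidative phosphorylation genes 13.

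Between the Epsti1-high cells of the 2 ages, 636 of 6158 genes differed (10.3%), 255 higher at 7 days (4.14%) and 381 higher at 8 weeks (6.19%). The count was 171 of 2228 genes tested without the first neonatal pool and 142 of 2217 without the second, and 578 without the second adult pool. Irf1, a marker given without a test, read 787 and 853 in neonatal and 222 and 225 in adult high cells. Irf8 was higher at 7 days (1353 and 1199.8 against 559 and 281, log2 change 1.45 ± 0.23, edgeR adjusted p = 8.5e-04), and so were Tap1, Gbp4 and Gbp5. Other class I pathway genes were not: Psmb8, Psmb9, Psmb10, Psme1, Psme2 and H2-T22 were higher at 8 weeks, 6 of 22 tested against 1. Class II genes were higher at 8 weeks in 6 of 14 tested, none at 7 days, with Cd74 at 5725 and 8477 in adult against 3436 and 2491 in neonatal high cells (log2 change -1.42 ± 0.20, edgeR adjusted p = 2.9e-04). Cd40, Cd70 and Cd80 were the costimulatory genes higher at 7 days, 3 of 11 with none lower. Of the maturation core 11 of 33 were higher at 7 days and 7 at 8 weeks. Oxidative phosphorylation genes were higher at 8 weeks in 24 of 53 tested and at 7 days in none.

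By size, the genes higher at 8 weeks were led by Cdkn2a, a cell cycle inhibitor (131 and 64.2 in adult against 0.637 and 2.05 in neonatal high cells), Fxyd2, a subunit of the sodium pump (394 and 585 against 13.4 and 13.7), the adhesion molecule Epcam (57.5 and 48.1 against 1.27 and 2.05), S100a4 (1479 and 2542 against 108 and 84.2) and Myof (73.9 and 72.2 against 3.18 and 5.48). Their adjusted p-values from edgeR lay between 5.4e-09 and 2.2e-04. At the other end, Xist, Stfa1, Gm37422, Apobr and Cstdc4 had no UMI in the adult high cells. Against a floor of 3 UMIs over the adult group they were at least 67.4, 7.64, 4.61, 4.202 and 4.12-fold higher in neonatal high cells. Stfa1 and Cstdc4 are stefin genes that neutrophils express, and both were highest in the second neonatal low sum (259 and 133), which also held the most neutrophil RNA of the neonatal sums.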

How the data were processed

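The deposited matrix holds raw UMI counts per gene and barcode, unnormalised, made with Cell Ranger 6.1.2 per the file headers and aligned to mm10 per the submitters' processing notes, which also name Seurat 4.2.0. The barcode suffix gave the pool, per the labels. It had 32285 genes and 14710 barcodes, and all its columns of counts were used. Gene coordinates come from GENCODE annotation on mm10 (32158 IDs matched) and promoters from RefSeq.

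Counts of Epsti1-high and Epsti1-low cells were summed per pool. The sums were compared with edgeR 4.0.16 in R 4.3.3 (quasi-likelihood test, robust, pool as block, TMM scaling, filterByExpr, Benjamini-Hochberg adjustment at 0.05), and with DESeq2 1.42.0 as an alternative. Levels are CPM, UMI counts per 1000000 gene UMIs of a sum. Pools came from separate mice, so same-numbered pools of the 2 ages are not pairs. The pools of an age share a channel. Doublets were predicted with Scrublet in scanpy 1.11.5. The 6 genes of the marker list (Epsti1, Ccr7, Fscn1, Il12b, Ccl5, Irf1) were left out of list counts, and no test of them is given. They stayed in the fits, in the adjustment and in the counts over all genes. Of the fits, only the neonatal one with the pool as a block was tried on simulated sums, and its outcome is not given here.

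Genes named by the rule were the 15 largest called changes per direction (at least 20 CPM in both pools of the higher group), from each gene list at most 5 with the lowest p-values, and the 5 largest called changes per direction of the age and interaction fits. Other genes were named after their values were seen. Some of these were given with statistics, among them H2-Aa, Irf4, Ccl17 and Gbp2. The members and the lists were chosen with earlier results of these data known. Alternatives covered the block, scaling, filters, doublets, other cell types' transcripts, depth, thinning, the Epsti1, Ccr7 and Fscn1 thresholds, the adult pools and each pool in turn. Results for a few genes are not reported here.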

Additional observations from a re-analysis of the deposited data

Results flagged for a closer look

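For 10 genes the Epsti1-high over Epsti1-low difference differed between neonatal and adult pools, and these are the 5 largest called differences in each direction (edgeR interaction term, Benjamini-Hochberg adjustment over 5089 genes). Most rest on few UMIs in the 33 adult high cells. Cd37 (adjusted p = 0.0115), Pde3b (adjusted p = 0.0217) and Strn4 (adjusted p = 0.0187) had no UMI in the adult high cells and similar levels in neonatal high and low cells. Cisd2 (adjusted p = 0.00977) had 1 UMI and Atp6v0a1 (adjusted p = 0.00661) had 2 in the adult high cells, against 255 and 227 in the neonatal high cells. In the other direction, 2610528A11Rik (adjusted p = 0.0032) had 1 UMI in the neonatal high cells and 13 in the adult high cells. Hp, a haptoglobin gene (adjusted p = 0.00761), had 68 and 6 UMIs, 5 of the 6 in the second adult pool, whose high sum stood apart in neutrophil RNA. Cdkn2a (adjusted p = 5.0e-04), S100a4 (adjusted p = 1.7e-23) and Fxyd2 (adjusted p = 9.8e-13) were low in neonatal high cells and abundant in adult high cells, with S100a4 at 293 UMIs in all neonatal and 497 in all adult high cells. Age, sex of the pools and channel cannot be told apart here.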

How the results depend on the processing

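The number of genes changed between Epsti1-high and Epsti1-low neonatal cells, 1823, was 1718 without the replicate block (813 higher, 905 lower) and 1340 to 1823 under 8 further alternatives. It was 1117 without barcodes holding other types' defining genes, 937 with an Epsti1 threshold of 0.4% and 680 over all 4 pools. DESeq2 called 393, with no adjusted p for 3206 of the 7189 genes. The edgeR count was 279 with cells thinned to 1000 UMIs (3254 genes tested) and 253 in the adult pools only. The block is the pool, which holds both groups of cells. Leaving out 1 pool in turn gave 194 to 887 genes over all pools, 1 to 211 genes whose difference varied by age and 142 to 710 genes between the ages of high cells, where 2217 to 7945 genes were tested against 6158. For the neonatal contrast, leaving out a pool leaves no residual degree of freedom and gives values with no test.

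The age difference in the Epsti1-high share of mature cells, 51.6 percentage points, was 36.5 with a threshold of 0.4%, 59.1 among barcodes of 2000 to 8000 UMIs, 49.0 after thinning and 49.8 to 53.3 without 1 pool. Among named genes, 14 changed sign in the adult pools: Lgmn (-0.32), Ifi27l2a (0.21), Cacnb3 (-0.054), Fas (-0.26), Pim1 (-0.27), Lyz2 (0.45), Cd68 (0.82), Uqcr10 (0.046), Ndufb10 (0.45), Ndufb8 (0.30), Ldha (0.13), Actn1 (-0.17), Dock10 (-0.20) and Traf1 (-0.068), as log2 changes. At a threshold of 0.1% Apoe (1.04), Stmn1 (0.36) and Top2a (0.88) did, at 0.4% B3gnt5 (-0.19), and among barcodes of 2000 to 8000 UMIs Apoe (0.057). The cause was not tested. No other tested alternative changed the sign of a named gene, and MHC class I genes were called higher in 10 to 20 members and lower in none under each setting fitted in the neonatal pools. The adult values rest on 33 high cells, which limits their precision.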
